A study of Caenorhabditis elegans with 12 samples.

Results

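The genes described here make the small-molecule neurotransmitters of Caenorhabditis elegans or load them into synaptic vesicles. The 10 genes were taken by name from the count table: tdc-1, tbh-1, cat-2, tph-1, bas-1, cat-1, unc-25, cha-1, unc-17 and eat-4. All 10 were found among the 18467 genes of the table, and all 10 passed the low-count filter that left 17043 genes to test. Polyadenylated RNA from whole worms was sequenced in 12 libraries, 3 for each of 4 RNAi treatments. RNAi by feeding lowers a transcript by giving worms bacteria that make double-stranded RNA of it. The first 3 groups received food of 25% bacteria with RNAi of vha-6, vha-16 or vha-19, made up with 75% control RNAi bacteria, and the last group received control RNAi bacteria. Every group was N2, the wild-type (WT) laboratory strain, was on its RNAi food from the L1 larval stage for 2.5 days at 20 °C, and was collected at the L4 or young adult stage. The 3 target genes encode subunits of the vacuolar H+-ATPase, the pump that acidifies lysosomes, and the study's title concerns a response to lysosomal stress. The comparisons ask how each transmitter gene stood under each knockdown. The labels do not say whether the 3 libraries of a group came from separate cultures, so the p-values speak of the scatter among these libraries alone, and that scatter may be technical.

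In the worm, tyrosine is turned into tyramine by a decarboxylase and tyramine into octopamine by a hydroxylase, in a few neurons and in cells of the gonad, and octopamine is known there as a counterpart of noradrenaline. Dopamine and serotonin are each made by a hydroxylase that sets the rate, followed by a decarboxylase that both pathways share. Acetylcholine and GABA act at the neuromuscular junction, and glutamate carries much of the signal from sensory neurons. A transmitter is released only after a vesicular transporter has loaded it, so an enzyme and its transporter together mark the type of a neuron.

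Libraries of all groups had similar depth, with 21981854 to 22553227 counts in genes. Each target was at its lowest under its own RNAi. vha-6 stood at 93.7 CPM with vha-6 RNAi against 401 CPM in control. vha-16 stood at 269 CPM with vha-16 RNAi against 441 CPM, and vha-19 at 217 CPM with vha-19 RNAi against 469 CPM. The treatments also moved targets other than their own. vha-6 was at 127 CPM with vha-16 RNAi and 116 CPM with vha-19 RNAi. Under vha-6 RNAi, vha-16 rose to 870 CPM and vha-19 to 781 CPM. vha-16 was at 379 CPM with vha-19 RNAi, and vha-19 at 318 CPM with vha-16 RNAi. CPM is a read count relative to the size of its library, here with library sizes scaled by trimmed means of M-values (TMM). The groups also differed in markers of stage and reproduction. Summed over 7 oocyte genes, the level was 623 to 636 CPM with vha-6 RNAi, 528 to 534 CPM with vha-16 RNAi and 543 to 565 CPM with vha-19 RNAi, against 7000 to 7130 CPM in control. Summed over 7 sperm genes it was 471 to 487, 445 to 459 and 469 to 480 CPM in those groups, against 124 to 131 CPM in control. Over 20 genes used throughout the nervous system the sum was 1310 to 1330, 1900 to 1920 and 1730 to 1770 CPM, against 1320 to 1330 CPM in control. That sum is set by its abundant genes and hides moves in both directions. Under vha-6 RNAi egl-3 stood at 240 CPM against 91.8 CPM in control, and maco-1 at 79.4 CPM against 270 CPM. The median log2 fold change of the 20 was 0.53, 0.84 and 0.73. The part of stage and tissue makeup in the results below was not tested.

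Tyramine and octopamine synthesis genes fell under all 3 knockdowns, and they showed the widest range of the 10 genes, with group means of log2 CPM spanning 2.93 for tdc-1 and 2.32 for tbh-1. The gene shared by dopamine and serotonin synthesis, bas-1, also fell in all 3. Most of the others stood higher than in control, by smaller amounts. Against control, 6 genes were called higher and 3 lower under vha-6 RNAi, where 47.9% of all tested genes were called higher and 41.4% lower. Under vha-16 RNAi 6 were higher and 3 lower, against 48% and 41.9% of all tested genes, and under vha-19 RNAi 5 were higher and 3 lower, against 47.7% and 42.2%. A call is an adjusted p under 0.05 from edgeR's quasi-likelihood F test with Benjamini-Hochberg adjustment over 17043 genes. The counts of calls are therefore near what the table as a whole gives, and the median log2 fold change of the 10 was 0.64, 0.48 and 0.22, against 0.24, 0.2 and 0.19 over all tested genes. All 10 differed among the 4 groups in a single test of all treatments, as did 95.1% of tested genes.

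**Figure D1:**
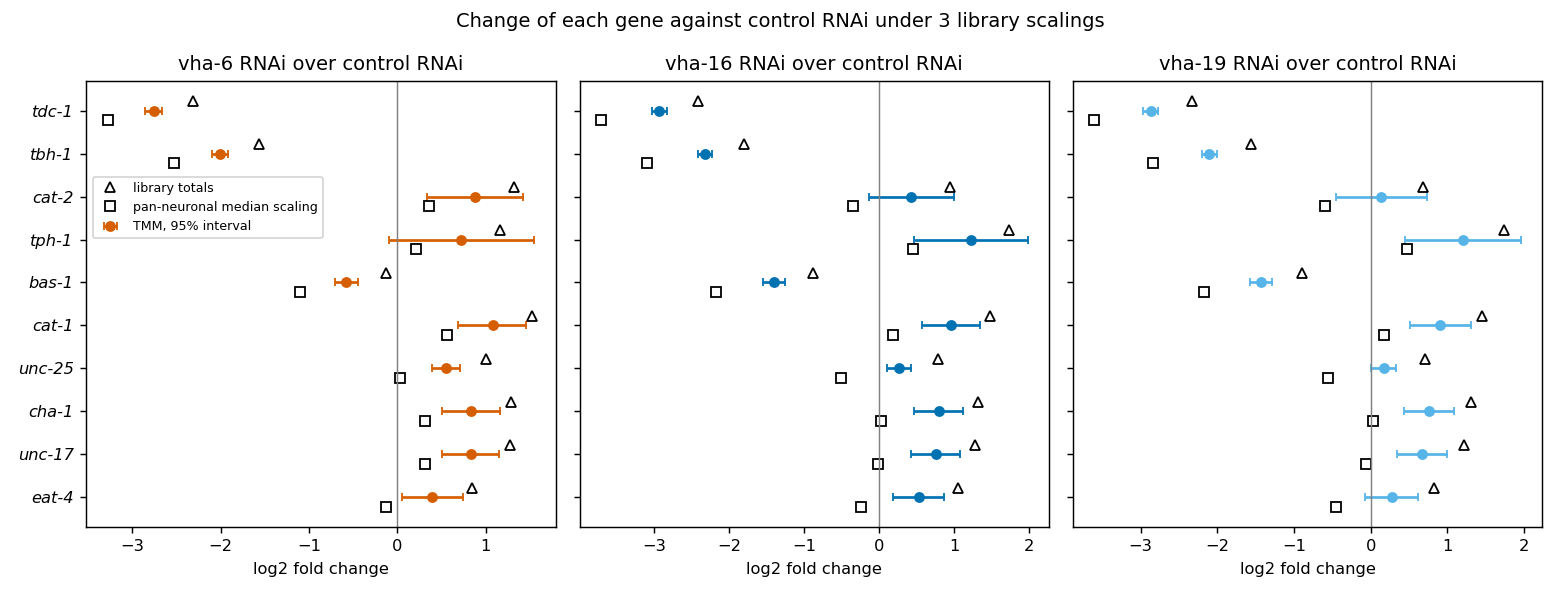
Log2 fold change over control RNAi (axis) of each of the 10 genes under RNAi of vha-6, vha-16 and vha-19, as filled points with 95% intervals (TMM scale). The points of tdc-1, tbh-1 and bas-1 lie below 0 under all 3 treatments, between -2.93 and -0.58, and the others lie above 0, though cat-2, unc-25, unc-17 and eat-4 change sign for at least 1 treatment with scaling to the median of 20 neuronal genes (squares). Triangles show scaling by library totals.

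Levels can be set beside each other only per length, here as CPM per kilobase of exon. On that scale the 4 most abundant genes in every group were tbh-1, tdc-1, unc-25 and bas-1. tbh-1 was first throughout, at 41.4 ± 1.27 CPM per kilobase with vha-6 RNAi, 33.4 ± 1.04 with vha-16 RNAi and 38.7 ± 2.51 with vha-19 RNAi, against 166 ± 6.26 in control (SD, n = 3). In control tdc-1 came next with 95.7 ± 5.12 CPM per kilobase, ahead of bas-1 with 18.7 and unc-25 with 11.1. Under vha-6 RNAi unc-25 stood at 16.3 CPM per kilobase, with tdc-1 at 14.1 and bas-1 at 12.5. The vha-16 RNAi levels were 13.4 CPM per kilobase for unc-25, 12.5 for tdc-1 and 7.07 for bas-1, and under vha-19 RNAi tdc-1 had 13.1, unc-25 12.5 and bas-1 6.89. unc-25 and tdc-1 were thus neighbours in the order under all 3 knockdowns, with the ratio of tdc-1 to unc-25 per length at 0.783 to 0.987 with vha-6 RNAi, 0.866 to 0.996 with vha-16 RNAi and 0.998 to 1.09 with vha-19 RNAi, against 7.92 to 9.42 in control. The remaining 6 lay between 0.471 CPM per kilobase (tph-1) and 3.26 (unc-17) under vha-6 RNAi and between 0.285 (tph-1) and 1.83 (unc-17) in control.

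**Figure D2:**
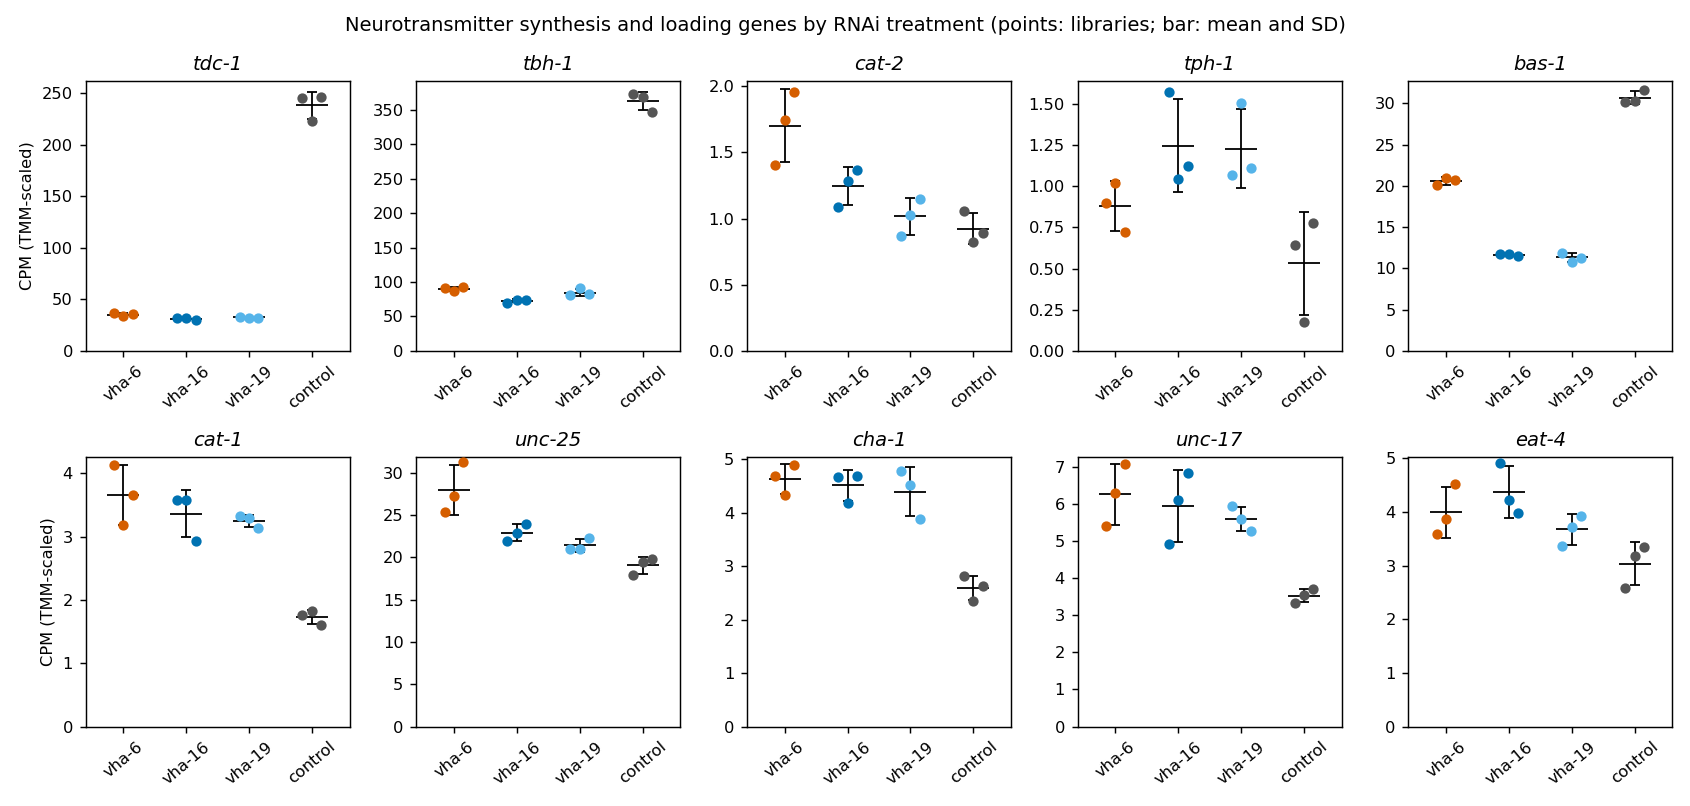
CPM (vertical axes, from 0, each with its own scale) of the 10 genes in the 12 libraries, with RNAi of vha-6, vha-16 and vha-19 left of control. Points are libraries and bars the mean and SD of 3. Control libraries stand apart above the others for tdc-1, tbh-1 and bas-1. They lie below the others for cat-1, cha-1, unc-17, unc-25 and, by a narrow gap, eat-4. tph-1 rests on under 2 CPM in every library.

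The gene tdc-1 encodes tyrosine decarboxylase, which makes tyramine, and is known from RIM and RIC neurons, gonadal sheath cells and uv1 cells of the uterus. It is annotated on chromosome II, 8270597 to 8273615, plus strand (WBGene00006562; WBcel235, Ensembl 115), with 2490 bases of exon. Its libraries held 36.3, 33.8 and 35.5 CPM with vha-6 RNAi, 31.8, 31.8 and 30.1 CPM with vha-16 RNAi and 33.3, 31.9 and 32.3 CPM with vha-19 RNAi, against 245, 223.5 and 246 CPM in control. All 9 knockdown libraries lay far below all control libraries, with no overlap. The share of all tested genes without overlap was not counted, so for this and the genes below it is a description only. The fall was 6.76-fold with vha-6 RNAi (log2 fold change -2.76, SE 0.043, adjusted p = 7.13e-34), 7.63-fold with vha-16 RNAi (-2.93, adjusted p = 1.04e-34) and 7.32-fold with vha-19 RNAi (-2.87, adjusted p = 1.48e-34). In whole-worm RNA fewer cells of a type and less RNA per cell cannot be told apart.

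tbh-1 encodes tyramine beta-hydroxylase, which turns tyramine into octopamine in RIC neurons and gonadal sheath cells. It lies on chromosome X, 15500256 to 15504895, minus strand (WBGene00006541), with 2182 bases of exon. Libraries held 91.5, 87.1 and 92.3 CPM with vha-6 RNAi, 70.3, 74.4 and 73.9 CPM with vha-16 RNAi and 80.6, 90.8 and 82.1 CPM with vha-19 RNAi, against 373, 369 and 348 CPM in control. Here too every knockdown library was below every control library. The fall was 4.02-fold, 4.99-fold and 4.3-fold under RNAi of vha-6, vha-16 and vha-19 (log2 fold changes -2.01, -2.32 and -2.10, adjusted p = 1.08e-30, 1.98e-32 and 2.04e-31). Of the pair, tdc-1 fell further. The ratio of tdc-1 to tbh-1 per length within a library, which no scaling of libraries can change, was 0.337 to 0.348 with vha-6 RNAi, 0.357 to 0.396 with vha-16 RNAi and 0.308 to 0.362 with vha-19 RNAi, against 0.53 to 0.62 in control.

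Marker lists of the gonadal sheath and of the uterus, vulva and uv1 cells moved in different ways. The second is wider than the cells known to use the pair, and no markers of RIM or RIC neurons were listed. Summed over 5 genes of the gonadal sheath, the level was 213 to 218 CPM with vha-6 RNAi, 219 to 222 CPM with vha-16 RNAi and 216 to 229 CPM with vha-19 RNAi, against 286 to 292 CPM in control. Of these 5, the gap junction genes inx-8 (log2 fold changes -0.81, -1.25 and -1.02 under RNAi of vha-6, vha-16 and vha-19) and inx-9 (-0.99, -1.22 and -1.12) fell in all 3, while ceh-18 (0.88, 0.73 and 0.67), lim-7 (0.67, 0.47 and 0.48) and ced-1 (-0.22, 0.46 and 0.3) had values that turn sign with the scaling of libraries for at least 1 knockdown. Summed over 11 genes of the uterus, vulva and uv1 cells, it was 269 to 274, 299 to 313 and 283 to 308 CPM in those groups, against 123 to 124 CPM in control, with 10, 10 and 9 genes called higher and 1, 0 and 0 lower. With TMM 47.9%, 48% and 47.7% of all tested genes were called higher. With libraries scaled to the median of 20 neuronal genes, 7, 5 and 6 of the 11 were higher and 1, 1 and 2 lower. The medians of the 11 were 0.51, 0.11 and 0.15, against 1.03, 0.88 and 0.89 with TMM. Over all tested genes the medians were -0.28, -0.57 and -0.54, against 0.24, 0.2 and 0.19 with TMM. Among the 11, ida-1, which is used by uv1 and neuronal cells, was higher by 1.55, 1.68 and 1.6 on the log2 scale. It made up a large part of the sum, with 124, 136 and 128 CPM against 42.4 CPM in control. No gene of either list was at 0 counts in any group, and the part of these cells in the falls of tdc-1 and tbh-1 was not tested. tdc-1 shares 73 exon bases with gei-14 on the other strand, which also fell, to 51.4, 39.8 and 42.2 CPM under RNAi of vha-6, vha-16 and vha-19 against 175 CPM in control. tbh-1 shares 26 exon bases with suox-1 and 372 with H13N06.7, which is not among the genes of the table. suox-1 stood at 25.1, 18.8 and 19.3 CPM in those groups, against 34.5 CPM in control. Whether counting used the strand is not given in the sources used here, so reads from such stretches cannot be assigned with certainty.

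bas-1 encodes the aromatic amino acid decarboxylase that completes both dopamine and serotonin synthesis. It is on chromosome III, 5612274 to 5614660, plus strand (WBGene00000239), with no exon overlap with another gene. Libraries held 20.1, 21 and 20.7 CPM with vha-6 RNAi, 11.7, 11.7 and 11.5 CPM with vha-16 RNAi and 11.9, 10.8 and 11.3 CPM with vha-19 RNAi, against 30.1, 30.3 and 31.7 CPM in control. The 3 vha-6 RNAi libraries formed a level of their own, between control and the other knockdowns, without overlap on either side. The fall was 1.49-fold with vha-6 RNAi (log2 fold change -0.58, SE 0.057, adjusted p = 2.44e-11), 2.64-fold with vha-16 RNAi (-1.40, adjusted p = 6.68e-21) and 2.71-fold with vha-19 RNAi (-1.44, adjusted p = 3.29e-21). With libraries scaled by their totals the vha-6 RNAi value shrinks to -0.13 (adjusted p = 0.0302). The vha-6 RNAi level was above that under vha-16 RNAi by 0.82 on the log2 scale (adjusted p = 1.06e-13) and above that under vha-19 RNAi by 0.86 (adjusted p = 3.86e-14).

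The neighbouring relative basl-1, which starts 287 bases after the end of bas-1 on the same strand, went the other way. basl-1 held 36.4 ± 0.483, 33.5 ± 0.688 and 35.5 ± 1.34 CPM under RNAi of vha-6, vha-16 and vha-19, against 5.59 ± 0.196 CPM in control (SD, n = 3), log2 fold changes of 2.70, 2.58 and 2.66. Within a library the ratio of bas-1 to basl-1 per length was 0.53 to 0.561 with vha-6 RNAi, 0.333 to 0.341 with vha-16 RNAi and 0.286 to 0.326 with vha-19 RNAi, against 5.16 to 5.75 in control, so that basl-1 was the more abundant of the 2 under each knockdown and bas-1 in control. Of the other members of the decarboxylase family, hdl-2 stood at 26.3, 22.3 and 25.1 CPM against 5.08 CPM in control (2.37, 2.14 and 2.30). hdl-1 stood at 20.7, 19.4 and 22 CPM against 6.26 CPM (1.73, 1.63 and 1.82). Of the 5 family genes measured, tdc-1 and bas-1 fell and the 3 less studied relatives rose, in each knockdown and under each of the 5 scalings of libraries.

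**Figure D3:**
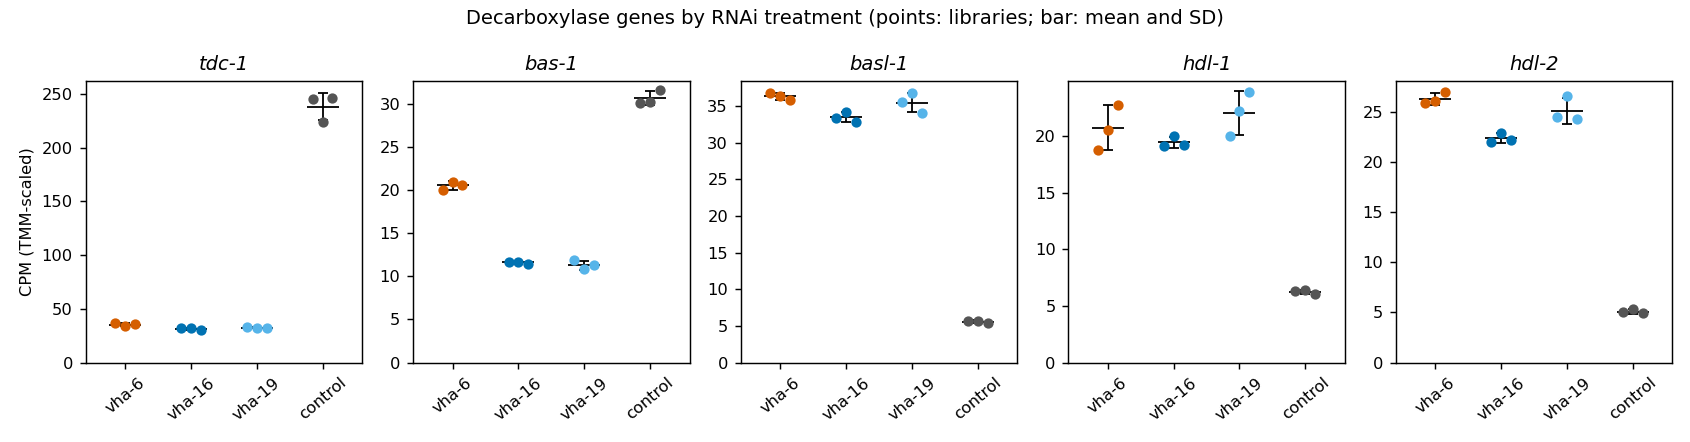
CPM (vertical axes, from 0, each with its own scale) of 5 decarboxylase genes in the 12 libraries, with RNAi of vha-6, vha-16 and vha-19 left of control and bars for the mean and SD of 3. tdc-1 and bas-1 are highest in control, while basl-1, hdl-1 and hdl-2 are lowest there, at 5.59, 6.26 and 5.08 CPM.

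Both rate-setting hydroxylases were barely measured. cat-2 encodes tyrosine hydroxylase of the dopamine neurons (WBGene00000296, chromosome II, 257819 to 261074). Its libraries held 33, 41 and 46 counts with vha-6 RNAi, 27, 32 and 34 with vha-16 RNAi and 22, 26 and 29 with vha-19 RNAi, against 18, 14 and 15 in control, which is 1.70 ± 0.278, 1.25 ± 0.144 and 1.02 ± 0.141 CPM, against 0.925 ± 0.118 CPM. On the CPM scale the vha-6 and vha-16 RNAi libraries lay above control and the vha-19 RNAi libraries overlapped it. The rise was called under vha-6 RNAi (log2 fold change 0.88, SE 0.233, adjusted p = 0.000802), with 0.36 (adjusted p = 0.181) under scaling to the median of neuronal genes. The difference was 0.43 under vha-16 RNAi (adjusted p = 0.0999, 95% interval -0.14 to 1) and 0.14 under vha-19 RNAi (adjusted p = 0.623, -0.46 to 0.73), neither of them called.

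tph-1 encodes tryptophan hydroxylase of the serotonin neurons (WBGene00006600, chromosome II, 7549335 to 7551983). Its libraries held 21, 24 and 17 counts with vha-6 RNAi, 39, 26 and 28 with vha-16 RNAi and 27, 38 and 28 with vha-19 RNAi, against 11, 3 and 13 in control. The vha-16 and vha-19 RNAi libraries lay above control on the CPM scale, and the vha-6 RNAi libraries overlapped it. Rises were called under vha-16 RNAi (log2 fold change 1.22, SE 0.328, adjusted p = 0.000843) and vha-19 RNAi (1.2, adjusted p = 0.00101). The vha-6 RNAi value of 0.72 was not called (adjusted p = 0.0561, 95% interval -0.10 to 1.55), but crossed the threshold in 8 of the 12 fits that left out 1 library each. These 8 left out control replicate 3, with a value of 1.08 (adjusted p = 0.0198), vha-6 RNAi replicate 3 (adjusted p = 0.0405) or any 1 of the 6 vha-16 and vha-19 RNAi libraries (adjusted p = 0.0416 to 0.0476). Control replicate 2, with 3 counts, weighed most. Without it the values were 0.31 (adjusted p = 0.407), 0.81 (adjusted p = 0.02) and 0.79 (adjusted p = 0.0233) under RNAi of vha-6, vha-16 and vha-19. Scaled to the median of neuronal genes, none of the 3 was called. The other strand of 43 exon bases of tph-1 holds ZK1290.10, which stood at 4.37, 15.2 and 11.6 CPM under the knockdowns against 0.768 CPM in control. Its share of the tph-1 counts was not tested.

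cat-1 encodes the vesicular transporter that loads dopamine, serotonin, tyramine and octopamine (WBGene00000295, chromosome X, 5705690 to 5710737). Libraries held 4.14, 3.19 and 3.66 CPM with vha-6 RNAi, 3.58, 3.58 and 2.93 CPM with vha-16 RNAi and 3.33, 3.29 and 3.14 CPM with vha-19 RNAi, against 1.76, 1.83 and 1.61 CPM in control. No knockdown library overlapped control. The rises were 2.11-fold, 1.94-fold and 1.87-fold (log2 fold changes 1.08, 0.96 and 0.91, adjusted p = 4.19e-07, 3.77e-06 and 9.51e-06). With scaling to the median of neuronal genes the vha-6 RNAi rise was still called (0.56), and the calls were lost for vha-16 RNAi (0.19, adjusted p = 0.353) and vha-19 RNAi (0.18, adjusted p = 0.379). Relative to this transporter of the amines, tdc-1 and bas-1 were lower under each knockdown. Within a library the ratio of tdc-1 to cat-1 per length was 7.08 to 8.54 with vha-6 RNAi, 7.15 to 8.27 with vha-16 RNAi and 7.83 to 8.31 with vha-19 RNAi, against 98.6 to 123 in control. For bas-1 to cat-1 it was 5.92 to 8.03, 3.99 to 4.77 and 4.02 to 4.39, against 20.3 to 24 in control.

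The hydroxylases need the cofactor tetrahydrobiopterin, and the gene for its first step stood higher than control under vha-6 RNAi and lower under the other knockdowns. cat-4, which encodes GTP cyclohydrolase, the entry enzyme, stood at 58 ± 2.42 CPM with vha-6 RNAi, 15.9 ± 0.623 CPM with vha-16 RNAi and 14.7 ± 0.828 CPM with vha-19 RNAi, against 36.8 ± 2.66 CPM in control (SD, n = 3). It rose under vha-6 RNAi (log2 fold change 0.66, adjusted p = 9.16e-14) and fell under vha-16 RNAi (-1.21, adjusted p = 5.13e-19) and vha-19 RNAi (-1.32, adjusted p = 5.25e-20), and vha-6 RNAi stood 1.86 above vha-16 RNAi (adjusted p = 2.44e-25) and 1.98 above vha-19 RNAi (adjusted p = 6.47e-26). ptps-1, the next enzyme, showed 0.30, -0.80 and -0.81, although the first value becomes -0.22 with scaling to the median of neuronal genes. The genes for recycling the cofactor, qdpr-1 (-0.54, -0.41 and -0.56) and pcbd-1 (-0.99, -1.27 and -1.26), fell in all 3, although the vha-16 RNAi value of qdpr-1 becomes 0.11 with library totals. With TMM, 2 of the 4 were called higher and 2 lower under vha-6 RNAi, and 4 of 4 lower under each of the others. Of all tested genes 47.9% were called higher and 41.4% lower under vha-6 RNAi. Under RNAi of vha-16 and vha-19, 41.9% and 42.2% of all tested genes were lower. With library totals 1 of the 4 was higher and 3 lower under vha-16 RNAi, and 0 higher and 3 lower under vha-19 RNAi.

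unc-25 encodes glutamate decarboxylase, which makes GABA (WBGene00006762, chromosome III, 12942651 to 12949883). Libraries held 25.4, 27.3 and 31.3 CPM with vha-6 RNAi, 22, 22.9 and 23.9 CPM with vha-16 RNAi and 21, 21 and 22.3 CPM with vha-19 RNAi, against 17.9, 19.5 and 19.9 CPM in control. No knockdown library overlapped control, and the vha-6 RNAi libraries lay above all others. The rise under vha-6 RNAi was 0.55 on the log2 scale (SE 0.0695, adjusted p = 6.41e-09), with 0.03 under scaling to the median of neuronal genes. The rises under vha-16 RNAi (0.27, adjusted p = 0.000872) and vha-19 RNAi (0.17, adjusted p = 0.0277) turned to called falls of -0.51 and -0.56 under that scaling. With DESeq2's size factors they were 0.08 (adjusted p = 0.317) and -0.004. The vha-19 RNAi call was also lost without control replicate 1 (0.12, adjusted p = 0.153) or without vha-19 RNAi replicate 3 (0.16, adjusted p = 0.0521). The vesicular GABA transporter gene unc-47 was measured at 2.67, 2.76 and 2.88 CPM under RNAi of vha-6, vha-16 and vha-19, against 1.1 CPM in control, rises of 1.27, 1.32 and 1.38 on the log2 scale.

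cha-1 and unc-17 encode choline acetyltransferase and the vesicular acetylcholine transporter. Both lie on the minus strand of chromosome IV, at 3613931 to 3624697 (WBGene00000481) and 3618259 to 3624699 (WBGene00006756), and their first exons share the bases from 3624632 to 3624697, so that reads there cannot be assigned to either gene alone. cha-1 held 4.69, 4.34 and 4.90 CPM with vha-6 RNAi, 4.67, 4.18 and 4.70 CPM with vha-16 RNAi and 4.79, 4.52 and 3.89 CPM with vha-19 RNAi, against 2.81, 2.36 and 2.62 CPM in control. unc-17 held 5.42, 6.30 and 7.07 CPM, 4.91, 6.11 and 6.83 CPM, and 5.94, 5.59 and 5.28 CPM in the same groups, against 3.34, 3.54 and 3.70 CPM in control. Every knockdown library was above every control library for both genes, and the knockdowns overlapped each other. The cha-1 rises were 0.84, 0.80 and 0.76 on the log2 scale under RNAi of vha-6, vha-16 and vha-19 (adjusted p = 1.98e-06, 4.01e-06 and 9.14e-06), and none of the 3 was called with scaling to the median of neuronal genes (0.32, 0.02 and 0.03, adjusted p = 0.0557, 0.888 and 0.871). For unc-17 they were 0.83, 0.76 and 0.67 (adjusted p = 1.57e-06, 7.04e-06 and 4.89e-05), with -0.02 and -0.06 for vha-16 and vha-19 RNAi under scaling to the median of neuronal genes. The ratio of cha-1 to unc-17 per length overlapped between groups, at 0.639 to 0.803, 0.634 to 0.882 and 0.683 to 0.75, against 0.618 to 0.781 in control.

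eat-4 encodes the vesicular glutamate transporter (WBGene00001135, chromosome III, 9136887 to 9141827). Libraries held 3.58, 3.87 and 4.51 CPM with vha-6 RNAi, 4.91, 4.22 and 3.98 CPM with vha-16 RNAi and 3.37, 3.73 and 3.93 CPM with vha-19 RNAi, against 2.58, 3.18 and 3.34 CPM in control. The lowest knockdown library stood just above the highest control library, so the gap was narrow. The differences were 0.40 with vha-6 RNAi (adjusted p = 0.0138), 0.53 with vha-16 RNAi (adjusted p = 0.00111) and 0.28 with vha-19 RNAi (adjusted p = 0.0797, 95% interval -0.07 to 0.62), and under scaling to the median of neuronal genes they turned to -0.12, -0.25 and -0.46. The vha-6 RNAi call was lost without control replicate 1 (0.29, adjusted p = 0.101) or without vha-6 RNAi replicate 3 (0.30, adjusted p = 0.0856). The vha-16 RNAi call was lost with the Wald test of DESeq2 (0.34, adjusted p = 0.0693), and the vha-19 RNAi value was called without vha-19 RNAi replicate 1 (0.36, adjusted p = 0.038). eat-4 shares 79 exon bases with ZK512.2 and 40 with ZK512.7 on the other strand. ZK512.2 stood at 58.3, 61 and 57.7 CPM under RNAi of vha-6, vha-16 and vha-19, against 92.1 CPM in control. ZK512.7 stood at 85, 48.9 and 59.1 CPM, against 118 CPM in control. Their share of the eat-4 counts was not tested.

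The smaller rises depend on how libraries are scaled. The mean TMM factor was 1.05, 1.1 and 1.12 under RNAi of vha-6, vha-16 and vha-19, against 0.77 in control. Scaling by library totals moved the median of all genes by 0.45, 0.52 and 0.54 on the log2 scale in the 3 comparisons with control, DESeq2's size factors by -0.14, -0.19 and -0.17, and scaling to the median ratio of 20 neuronal genes by -0.52, -0.77 and -0.73. The last asks how the transmitter genes stood relative to these 20 genes in whole-worm RNA, and not within neurons. The 20 genes themselves had medians of 0.53, 0.84 and 0.73, with 13, 15 and 15 higher and 6, 5 and 5 lower. Relative to them tdc-1 was at -3.28, -3.71 and -3.61, tbh-1 at -2.53, -3.09 and -2.84, and bas-1 at -1.10, -2.17 and -2.17 under RNAi of vha-6, vha-16 and vha-19. The falls of these 3 genes kept direction and call in 189 of 189 values, 1 for each gene, comparison with control and alternative fit. Of the rises, cat-1 (0.56, adjusted p = 0.00368) and unc-17 (0.31, adjusted p = 0.0339) under vha-6 RNAi were still called with that scaling, and no gene was called higher under the other knockdowns.

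Among the 3 knockdowns, 5 of the 10 genes were called between vha-6 and vha-16 RNAi, and 3 between vha-6 and vha-19 RNAi. The other 5 and 7 were not called, against 6338 and 7084 of 17043 tested genes. Calls were thus no more frequent among the 10 than among all tested genes. Over vha-16 RNAi 5 genes were called higher and 0 lower, where 31.2% of tested genes were called higher and 31.6% lower. They were bas-1 (0.82), cat-2 (0.45, adjusted p = 0.0449), tbh-1 (0.31, adjusted p = 1.31e-07), unc-25 (0.29, adjusted p = 0.000152) and tdc-1 (0.17, adjusted p = 0.00324). The cat-2 call was lost without vha-6 RNAi replicate 2 (adjusted p = 0.0958), vha-6 RNAi replicate 3 (adjusted p = 0.199), vha-16 RNAi replicate 1 (adjusted p = 0.119) or vha-16 RNAi replicate 2 (adjusted p = 0.0544). Over vha-19 RNAi 3 were higher and 0 lower, against 29% and 29.5% of tested genes. These were bas-1 (0.86), cat-2 (0.74, adjusted p = 0.00211) and unc-25 (0.38, adjusted p = 2.68e-06). tdc-1 (0.12, adjusted p = 0.0502) and tbh-1 (0.10, adjusted p = 0.0545) lay at the threshold. Leaving out control replicate 2, vha-6 RNAi replicate 2, vha-19 RNAi replicate 1 or any 1 vha-16 RNAi library called tdc-1 (adjusted p = 0.0287 to 0.037), and leaving out vha-6 RNAi replicate 2, vha-19 RNAi replicate 2 or any 1 vha-16 RNAi library called tbh-1 (adjusted p = 0.00133 to 0.034), so that the count of higher genes reached 5 in 4 of those fits. Between vha-16 and vha-19 RNAi, where 9.81% of tested genes were called higher and 7.56% lower, 0 of the 10 were higher and 1 was lower, tbh-1 (-0.21, 95% interval -0.31 to -0.11, adjusted p = 0.000399). The other 9 had intervals that included 0, the widest for tph-1 (-0.53 to 0.57) and the narrowest for tdc-1 (-0.18 to 0.06).

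Genes that receive, clear and break down the transmitters were counted in lists of the pathways. Their counts are to be read against the shares of all tested genes. On the TMM scale 47.9%, 48% and 47.7% were called higher and 41.4%, 41.9% and 42.2% lower under RNAi of vha-6, vha-16 and vha-19. Over all lists, 71 genes were called higher, 17 lower and 16 neither under vha-6 RNAi. With vha-16 RNAi 73 were higher, 22 lower and 9 neither, and the same numbers were found with vha-19 RNAi, with medians of 0.70, 0.75 and 0.69. Scaled to the median of neuronal genes, the counts were 40 higher and 30 lower, 33 and 37, and 30 and 38. All tested genes had medians of -0.28, -0.57 and -0.54 with that scaling, and 41.1%, 36.5% and 36.7% of their calls were higher. List medians with that scaling are to be read against these. Directions below are on the TMM scale, and each named gene kept its direction under all 5 scalings unless stated. Up to 4 genes of a list are named, by the width of their range.

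The receptors of the 2 amines whose synthesis genes fell did not fall with them as a group. Of 7 tyramine and octopamine receptors 5 were higher and 1 lower under vha-6 RNAi, and 6 were higher and 1 lower under each of the others, with medians of 0.72, 0.78 and 0.80 (0.20, 0.01 and 0.07 with scaling to neuronal genes). tyra-2, a tyramine receptor coupled to G proteins, was the one that fell, to 1.83, 1.58 and 1.49 CPM under RNAi of vha-6, vha-16 and vha-19 against 3.46 CPM in control (-0.92, -1.13 and -1.21). tyra-3 rose (1.06, 1.22 and 0.93), as did lgc-55, a chloride channel opened by tyramine (0.82, 1.33 and 1.38), and the octopamine receptor ser-3 (0.72, 0.94 and 1.08).

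For dopamine, 5 of 7 receptors rose and 2 fell in each knockdown (medians 0.91, 0.79 and 0.72, but 0.39, 0.02 and -0.01 with scaling to neuronal genes). dop-1 (1.12, 1.63 and 1.40) and dop-5 (1.67, 1.88 and 1.86) rose, and dop-4 fell (-1.05, -0.57 and -0.66). Of 6 serotonin receptors 3 rose in each knockdown, and 0, 1 and 1 fell (medians 0.32, 0.56 and 0.36, but -0.20, -0.21 and -0.37 with that scaling). The channel gene lgc-50 (0.94, 1.33 and 1.29) and ser-4 (0.96, 1.25 and 0.93) were among the rises. All 6 GABA receptor genes rose in each knockdown (medians 1.08, 1.01 and 0.86, and 0.56, 0.24 and 0.13 with that scaling), among them unc-49, the receptor of body-wall muscle (1.07, 0.89 and 0.81), and gab-1 (1.16, 1.81 and 1.51).

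Of 11 acetylcholine receptor genes 8 rose and 1 fell in each knockdown (medians 0.96, 0.70 and 0.67, but 0.44, -0.07 and -0.06 with scaling to neuronal genes). acr-12, a nicotinic subunit of motor neurons, rose to 6.56, 16.5 and 16.1 CPM under RNAi of vha-6, vha-16 and vha-19 against 3.13 CPM in control (1.07, 2.39 and 2.37). acr-2 (1.44, 1.30 and 1.38) and the muscarinic receptor gar-1 (1.31, 1.5 and 1.52) rose as well. Of 16 glutamate receptor genes 12, 13 and 14 rose and 1 fell in each (medians 0.65, 0.71 and 0.68, but 0.13, -0.06 and -0.05 with that scaling), with glc-1, a chloride channel opened by glutamate, at 52.3, 39.6 and 48.2 CPM against 15.7 CPM in control (1.73, 1.33 and 1.61).

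Most reuptake genes were called higher. Of 10 reuptake transporters 8, 9 and 9 were higher and 1 lower in each knockdown (medians 0.96, 0.83 and 0.81, and 0.44, 0.05 and 0.08 with scaling to neuronal genes). The glutamate transporter glt-5 rose most among them, to 15.8, 19 and 19.9 CPM under RNAi of vha-6, vha-16 and vha-19 against 2.48 CPM in control (2.67, 2.93 and 3.00), and the GABA transporter snf-11 rose (1.29, 1.70 and 1.77). Of 13 breakdown genes 8 were higher and 4 lower under vha-6 RNAi, and 7 higher and 6 lower under each of the others (medians 0.58, 0.28 and 0.39, but 0.05, -0.49 and -0.34 with that scaling), which is near the shares of all tested genes for vha-16 and vha-19 RNAi. Genes of the catechol O-methyltransferase family differed widely. comt-2 stood at 21.9 CPM with vha-6 RNAi, 0.121 CPM with vha-16 RNAi and 0.0661 CPM with vha-19 RNAi, against 0.334 CPM in control (log2 fold change 6.01 for vha-6 RNAi), the levels below 1 CPM resting on few counts. comt-3 stood at 26.8 CPM under vha-6 RNAi, 90.3 CPM under vha-16 RNAi and 78.6 CPM under vha-19 RNAi, against 20.2 CPM in control (0.40, 2.16 and 1.96, all called), although the vha-6 RNAi value becomes -0.12 with scaling to the median of neuronal genes. Of 8 other loading genes and enzyme relatives 7 rose and 1 fell in each (medians 1.30, 1.31 and 1.32, with 5 higher and 1 lower in each under that scaling), the decarboxylase relatives and unc-47 above among them.

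**Figure D4:**
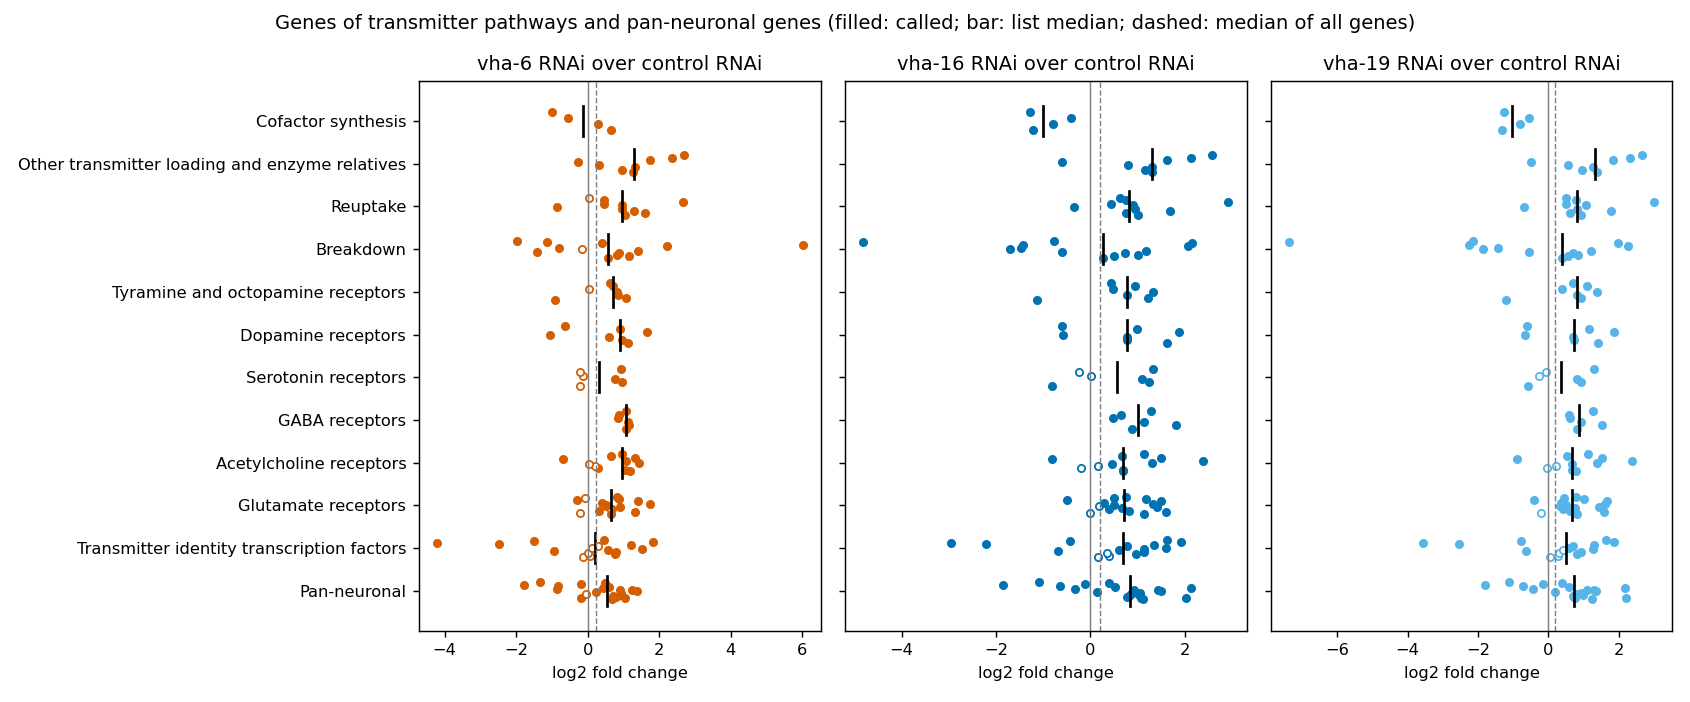
Log2 fold change over control RNAi (axis) of the genes of each pathway list under RNAi of vha-6, vha-16 and vha-19, on the TMM scale. Points are genes, filled where called, the dashed line is the median of all genes and bars mark list medians. These lie above 0 for the receptor and reuptake lists and below 0 for cofactor synthesis. With scaling to the median of neuronal genes the receptor and reuptake medians lie between -0.37 and 0.56. The median of all genes is then -0.28, -0.57 and -0.54.

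Transcription factors that set transmitter identity moved in both directions. Of 16 measured, 7, 9 and 8 were higher and 4, 4 and 4 lower under RNAi of vha-6, vha-16 and vha-19 (medians 0.21, 0.70 and 0.49, but -0.31, -0.07 and -0.24 with scaling to neuronal genes). hlh-3, a proneural factor needed in the HSN serotonin neurons, fell to 0.227, 0.549 and 0.357 CPM, against 4.31 CPM in control (-4.21, -2.96 and -3.57). egl-44, a TEA-domain factor that is also used outside neurons, rose to 162, 171 and 166 CPM, against 45.2 CPM (1.84, 1.92 and 1.87).

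The genes nearest to tdc-1 and tbh-1 in their 3 log2 fold changes over control, among 11495 genes with a mean of at least 5 CPM, were found by the distance between these triplets. For tdc-1 they were puf-7 (distance 0.0624, with -2.80, -2.89 and -2.87), H02I12.5 (0.0744) and B0393.3 (0.0934). For tbh-1 they were nos-1 (0.0604, with -1.97, -2.33 and -2.15), drsh-1 (0.0956) and capg-2 (0.102). Within a distance of 0.5 there were 71 genes for tdc-1 and 276 for tbh-1. The 3 comparisons share their control libraries, so such a distance is a description of the values only.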

How the data were processed

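The authors deposited raw read counts per gene, whole numbers with 12 different column totals and no normalization. Tools named in the submitters' processing notes include STAR 2.73a, with edgeR 3.24.3 also listed and the build WBcel235 (ce11). Which program counted reads, with which strand setting and gene filter, is not given in the sources used here. Unassigned reads (3 entries, 9.92% to 16.9% of counts) were kept out of library sizes and tests.

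Counts were analysed with edgeR 4.0.16 in R 4.3.3: filterByExpr (minimum count 10), TMM scaling, 1 fit over 12 libraries, quasi-likelihood F tests of 6 contrasts, and Benjamini-Hochberg adjustment over 17043 genes, called under 0.05. 1424 genes were removed. SE is the log2 fold change over the square root of F, and 95% intervals use t. The script was tested on simulated counts with changes planted in few genes, so the test cannot speak to scaling where most genes move. It recovered 39 of 50 genes changed 2-fold and 50 of 50 changed 4-fold, with 10 false among 163 calls. CPM per kilobase divides by the exon length of Ensembl 115. Figures used matplotlib 3.10.9 in Python 3.11.15.

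The genes, pathway lists and tests were chosen with earlier results of these data known. In each list the 4 genes with the widest range of group means among those with a mean of at least 1 CPM set which may be named, and other genes named from lists were chosen after their values were seen. Replicates differed beyond sampling noise. Alternatives were DESeq2 1.42.0 size factors and Wald test, library totals, scaling to 20 neuronal genes (their sum or, added after seeing the data, their median ratio), no filter, a mean of at least 5 CPM, a replicate block, the 2 compared groups only, and each library left out.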

Additional observations from a re-analysis of the deposited data

Results flagged for a closer look

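Reads outside the gene counts differed from control in both directions. Reads with no unique alignment, the most frequent kind, made up 9.5% of counts with vha-6 RNAi, 7.64% with vha-16 RNAi and 8.08% with vha-19 RNAi, against 15.3% in control. The smaller kinds went the other way. Reads in no annotated feature made up 0.995% of counts with vha-6 RNAi, 1.3% with vha-16 RNAi and 1.27% with vha-19 RNAi, against 0.693% in control. Reads that could belong to more than 1 gene made up 0.904%, 1% and 0.986% in those groups, against 0.863% in control. These reads enter none of the comparisons, and which of them come from the overlaps of the transmitter genes was not tested.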

How the results depend on the processing

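Of the log2 fold changes of the 10 genes, 420 of 510 kept direction and call over the alternative settings and 679 of 720 over the fits without 1 library. The mean of at least 5 CPM left out cat-2, tph-1, cat-1, cha-1 and eat-4, so those gave no value there and 2 genes were higher in each comparison with control. Only 3 counts in the lowest tph-1 library and 14 in the lowest cat-2 library limit those genes. Same-numbered libraries did not deviate together over all tested genes (18 pairs, correlations -0.035 to 0.05, 0 over 0.1). The labels do not say whether they shared a batch. With the replicate block the genes called higher against control were 6, 6 and 5 and the genes called lower 3, 3 and 3, as without it, and 1 of 60 calls was gained, tdc-1 for vha-6 over vha-19 RNAi (0.115, adjusted p = 0.0414).

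Values that changed sign are given by setting. DESeq2's size factors gave cat-2 -0.036 and unc-25 -0.004 for vha-19 RNAi over control, and the DESeq2 Wald test -0.035 and -0.004. Library totals gave cha-1 -0.033 for vha-6 over vha-16 RNAi, tbh-1 -0.001 and cha-1 -0.019 for vha-6 over vha-19 RNAi, and tph-1 -0.003 for vha-16 over vha-19 RNAi. Scaling to the summed neuronal genes gave, over control, cat-2 -0.094 and unc-25 -0.259 under vha-16 RNAi, and cat-2 -0.26, unc-25 -0.23 and eat-4 -0.122 under vha-19 RNAi. It gave tph-1 0.03 and eat-4 0.401 for vha-6 over vha-16 RNAi, and tph-1 -0.105, bas-1 -0.088, cat-1 -0.076, unc-25 -0.029, cha-1 -0.088 and unc-17 -0.039 for vha-16 over vha-19 RNAi. Scaling to the neuronal median gave, over control, eat-4 -0.124 with vha-6 RNAi, cat-2 -0.342, unc-25 -0.508, unc-17 -0.019 and eat-4 -0.245 with vha-16 RNAi, and cat-2 -0.593, unc-25 -0.564, unc-17 -0.063 and eat-4 -0.455 with vha-19 RNAi. It gave eat-4 0.12 for vha-6 over vha-16 RNAi, and tph-1 -0.02, bas-1 -0.003 and cha-1 -0.003 for vha-16 over vha-19 RNAi.

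Counts of the 10 genes moved as follows. Higher over vha-19 RNAi under vha-6 RNAi were 5 with DESeq2's size factors or Wald test, 9 with the neuronal sum and 9 with the neuronal median, against 3. Higher over vha-16 RNAi were 3 with library totals, 9 with the neuronal sum and 8 with the median, against 5. Over control, the neuronal sum gave 2 higher under vha-16 and 3 under vha-19 RNAi, and the median gave 2, 0 and 0 higher and 6 lower under vha-19 RNAi. For vha-16 over vha-19 RNAi the sum gave 2 lower, against 1.

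Counts over all genes moved with the same choices. With the neuronal sum, vha-6 over vha-16 RNAi had 11962 higher and 2061 lower (5313 and 5392 with TMM), vha-6 over vha-19 RNAi 11093 and 2148 (4938 and 5021), and vha-16 over vha-19 RNAi 750 and 5715 (1672 and 1289). With the neuronal median, 5368 and 5365 were higher over control with vha-16 and with vha-19 RNAi (8176 and 8122), vha-6 over vha-16 RNAi had 8837 and 3253, vha-6 over vha-19 RNAi 8183 and 3098, and vha-16 over vha-19 RNAi 982 higher. The Wald test gave 1059 there. Of all calls over control under RNAi of vha-6, vha-16 and vha-19, 53.6%, 53.4% and 53% were higher, 63.9%, 65.2% and 65.3% with library totals, 53.8%, 42.2% and 44.4% with the neuronal sum and 41.1%, 36.5% and 36.7% with the neuronal median. Leaving out 1 library gave 3 to 5 of the 10 genes higher under vha-6 than vha-19 RNAi and 1099 to 1690 of all genes higher under vha-16 than vha-19 RNAi. For single genes, leaving out 1 library gave, for vha-6 over vha-16 RNAi, cha-1 -0.002 to 0.098 and unc-17 -0.024 to 0.213, and for vha-16 over vha-19 RNAi, bas-1 -0.011 to 0.055, cat-1 -0.019 to 0.124, cha-1 -0.062 to 0.085, tph-1 -0.2 to 0.176 and unc-17 -0.039 to 0.186. The causes were not tested.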

Other observations

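Marker genes of other tissues, and of glia, set the background of these comparisons. Under RNAi of vha-6, vha-16 and vha-19, 47.9%, 48% and 47.7% of all tested genes were called higher with TMM. Those called lower were 41.4%, 41.9% and 42.2%. All 6 yolk protein genes fell in each knockdown (medians -6.96, -8.32 and -8.39 under RNAi of vha-6, vha-16 and vha-19). Of 8 cuticle and moult genes, col-19 among them, 7 rose and 1 fell in each (medians 2.90, 2.44 and 2.74). They are not taken here as markers of 1 stage. Summed over these 8, however, the level was 1970 to 2050, 1070 to 1180 and 1460 to 1520 CPM, against 1470 to 1620 CPM in control. Among 6 glial genes tested, 5, 3 and 3 were called higher and 1, 1 and 0 lower. The vha-16 and vha-19 RNAi counts of higher genes are near the shares of all tested genes. With scaling to the median of neuronal genes 5, 2 and 2 were higher and 1, 2 and 1 lower. Of the 6, itx-1 stood at 130, 233 and 249 CPM against 47.5 CPM in control (1.45, 2.29 and 2.39). Both spermatheca genes rose, fkh-6 by 1.55, 1.23 and 1.37 and sth-1 by 2.20, 1.73 and 1.74 on the log2 scale. Of 5 intestinal genes 5, 4 and 4 were higher (4, 2 and 3 with that scaling), and ges-1, an esterase of the gut, stood at 60.2 CPM with vha-6 RNAi, 9.56 CPM with vha-16 RNAi and 8.72 CPM with vha-19 RNAi, against 54.7 CPM in control, although its vha-6 RNAi difference of 0.14 on the log2 scale turns to -0.38 with scaling to the median of neuronal genes. The counts of 6 body-wall muscle genes depend on the scaling. With TMM, 5 were higher and 1 lower under vha-6 RNAi, 1 was higher and 5 lower under vha-16 RNAi, and 1 was higher and 3 lower under vha-19 RNAi. With library totals 3 were higher and 1 lower under each of the vha-16 and vha-19 treatments (medians 0.23 and 0.29, against -0.29 and -0.25 with TMM), and with the neuronal median 2 were higher and 1 lower under vha-6 RNAi.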
